A study of Mus musculus with 7 samples.

Results

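The 10 genes described here encode enzymes that make, convert or conjugate steroid hormones: Cyp17a1, Sult1e1, Hsd3b2, Hsd3b3, Hsd3b5, Hsd11b1, Hsd17b2, Hsd17b6, Hsd17b13 and Srd5a1. They were chosen by symbol because earlier results from the same libraries had set Cyp17a1 and Sult1e1 apart from the hydroxysteroid dehydrogenases (HSDs), the reductase and Hsd11b1. Their differences between the groups were therefore selected on, and are given below as a description with no test. They are 10 of the 56691 genes in the count table, and all 10 were among the 13683 genes that passed a filter on low counts. Sult1e1 met the minimum of that filter through the LPS libraries and Hsd3b5 through the control libraries, so for these genes a difference was built into passing.

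RNA sequencing was done on whole liver of male C57BL/6J mice, an inbred strain, bought at 8 weeks of age and housed for 2 weeks. Mice of the LPS group (3 libraries) received lipopolysaccharide, a bacterial cell wall component used as a model of sepsis, once into the peritoneum at 10 mg/kg and were killed 24 h later. The control group had 4 libraries, and what these mice were injected with is not given in the sources used here. The study also had mice given sulforaphane and LPS, and those were not analysed here. Reads counted on genes summed to 14991022, 15096573, 15721944 and 18584140 in the 4 controls and, for LPS replicates 1 to 3, to 20500391, 17095607 and 17821331. Levels are given as CPM, counts relative to library size after scaling by edgeR's TMM factors, and as mean ± SD over the libraries of a group. The libraries are described as coming from separate mice, and every p-value rests on that.

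Hp and Lcn2, which hepatocytes raise in the acute phase response, checked the labels. Hp was at 2669 ± 568 CPM (SD, n = 4) in control mice and 27528 ± 4302 CPM (SD, n = 3) in LPS mice, and Lcn2 at 9.82 ± 3.71 CPM and 8306 ± 1487 CPM. Both were higher in 3 of 3 LPS mice than in any control mouse. Alb, the main plasma protein of hepatocytes, stood between 37776 and 61686 CPM in control mice and between 24642 and 24693 CPM in LPS mice, without overlap.

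Some libraries stood apart within their group. LPS replicates 2 and 3 were closer to each other than any other pair of 1 group: over the 1901 genes with a mean of 1000 counts or more, log2 ratios between them had an SD of 0.121, while the other 8 pairs gave 0.315 to 0.552. The counts differed by 4.45 times the variance that counting alone gives, against 25.0 to 179 times in the other 8 pairs. Repeat libraries of 1 mouse could also exceed counting error, so this does not show separate mice. They were kept as 2 samples because they are described as such. Mitochondrial genes took 23.7% of the counts in control replicate 1, 14.6%, 7.48% and 8.96% in the other controls, and 6.45%, 3.83% and 3.94% in LPS replicates 1 to 3. The part of this share in the results was not tested. Main results are also given without control replicate 1, without LPS replicate 1 and with LPS replicates 2 and 3 summed.

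Steroid hormones are built from cholesterol in the adrenal cortex and the gonads, while the liver mainly reduces, oxidises, hydroxylates and conjugates them for excretion. CYP17A1 performs the 17α-hydroxylation and side chain cleavage that lead to cortisol-type steroids and androgens, and in rodents the liver can express it as well. SULT1E1 adds sulphate to oestrogens and so inactivates them, whereas HSDs and 5α-reductase interconvert active and inactive forms, and several of these liver genes differ between the sexes.

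Cyp17a1 (ENSMUSG00000003555) had 19, 19, 14 and 29 counts in control replicates 1 to 4, and 4057, 3855 and 4052 counts in LPS replicates 1 to 3. It was low in every control mouse and high in every LPS mouse, with no overlap. The level was 1.20 ± 0.25 CPM (SD, n = 4) in control and 229 ± 37 CPM (SD, n = 3) in LPS mice, 189-fold higher, with a log2 fold change of 7.56 (SE 0.21). LPS replicate 1 was the lowest of its group, at 187 CPM against 248 and 252 CPM. The log2 fold change was 7.61 without control replicate 1, 7.69 without LPS replicate 1 and 7.51 with LPS replicates 2 and 3 summed.

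Sult1e1 (ENSMUSG00000029272), the oestrogen sulphotransferase, had 4, 10, 12 and 3 counts in control replicates 1 to 4, and 2781, 2608 and 2540 counts in LPS replicates 1 to 3. The control counts are close to the 3 counts taken here as the smallest detectable amount, which correspond to between 0.138 and 0.212 CPM per library and cover counting error only. Its level was 0.448 ± 0.279 CPM (SD, n = 4) in control and 151 ± 21 CPM (SD, n = 3) in LPS mice, 341-fold higher, with a log2 fold change of 8.41 (SE 0.31). The few control counts moved this value most: it was 8.06 without control replicate 4 and 8.77 without control replicate 3. Without control replicate 1 it was 8.28, without LPS replicate 1 it was 8.52, and with LPS replicates 2 and 3 summed it was 8.37. In the order of all tested genes by log2 fold change, Sult1e1 stood at rank 19 from the top and Cyp17a1 at rank 41.

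Of the 10 genes, 2 had a log2 fold change above 1 and 7 had one below -1. Among all tested genes, 7.81% were called higher and 7.31% lower, a call being an adjusted p below 0.05 and a log2 fold change above 1 in size. All 3 LPS mice lay above all 4 control mice for 2 of the 10 genes and below them for 7, against 18.1% and 17.4% of all tested genes. The choice of the genes used this contrast, so nothing is read from these counts. The set was named for opposite changes, but Hsd17b13 did not change and its groups overlapped.

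**Figure D1:**
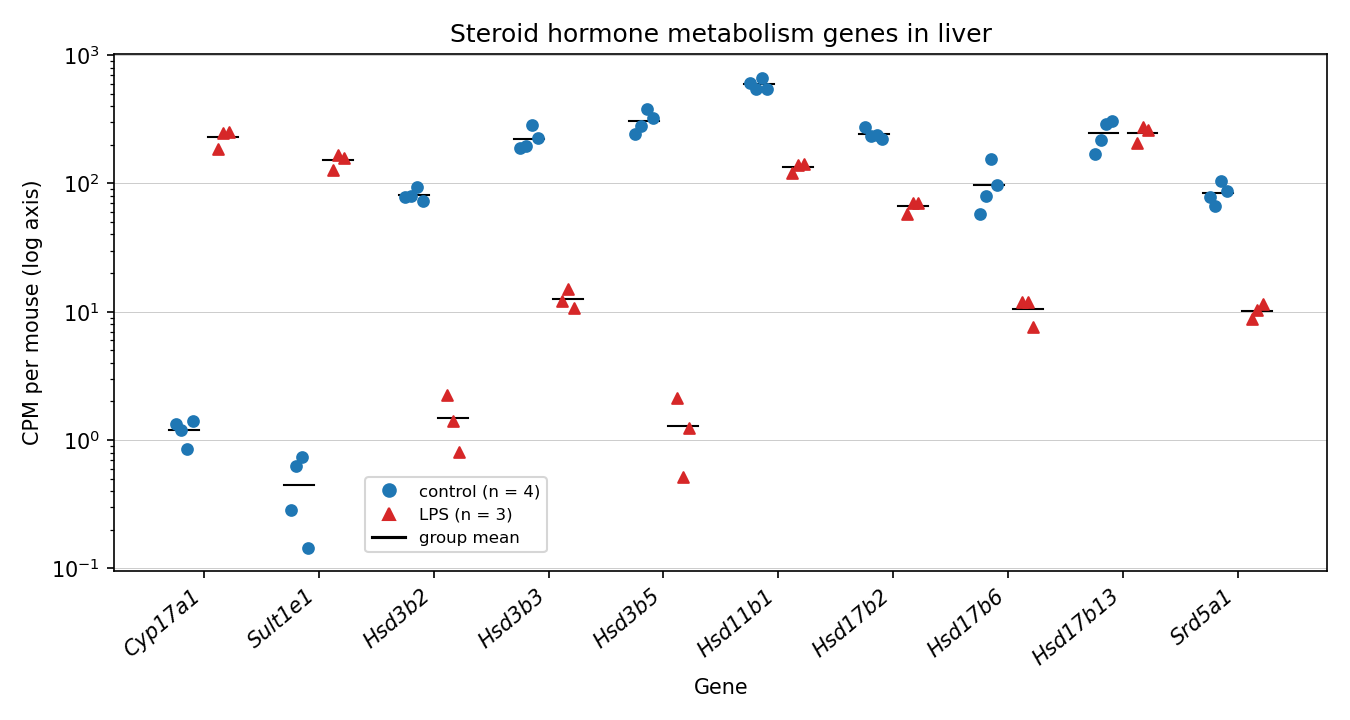
CPM of each of the 10 steroid hormone metabolism genes in every mouse, on a log axis, with control mice (n = 4) as circles, LPS mice (n = 3) as triangles and group means as black lines. Cyp17a1 and Sult1e1 lie higher in every LPS mouse, Hsd17b13 overlaps between the groups, and the other 7 genes lie lower in every LPS mouse.

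The 3β-hydroxysteroid dehydrogenases Hsd3b2, Hsd3b3 and Hsd3b5 were lower in LPS mice. Hsd3b5 (ENSMUSG00000038092), an enzyme of male mouse liver, had 3435, 4469, 6171 and 6626 counts in control replicates 1 to 4 and 46, 8 and 20 counts in LPS replicates 1 to 3. LPS replicate 1 was highest in its group and LPS replicate 2 lowest, but each was far below the lowest control mouse. The level was 305.7 ± 57.2 CPM (SD, n = 4) in control and 1.29 ± 0.80 CPM (SD, n = 3) in LPS mice, 226-fold lower, with a log2 fold change of -7.82 (SE 0.37), rank 18 from the bottom. It was -7.91 without control replicate 1, -8.42 without LPS replicate 1, -7.47 without LPS replicate 2 and -7.70 with LPS replicates 2 and 3 summed. Hsd3b2 (ENSMUSG00000063730) had 1105, 1266, 1547 and 1513 counts in control mice and 49, 22 and 13 counts in LPS mice, with a log2 fold change of -5.72 (SE 0.28). Hsd3b3 (ENSMUSG00000062410) had 2660, 3119, 4670 and 4652 counts in control mice and 262, 234 and 171 counts in LPS mice, with a log2 fold change of -4.15 (SE 0.21). The groups did not overlap for either gene.

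These 3 genes lie together on chromosome 3 and resemble each other, so the division of reads among them is uncertain. In GENCODE M21, coding sequences were identical at 95.1% of aligned positions between Hsd3b2 and Hsd3b3, at 80.7% between Hsd3b2 and Hsd3b5 and at 79.9% between Hsd3b3 and Hsd3b5. Of all windows of 100 bases in the transcript used for each gene, 14.9% in Hsd3b3, 5.70% in Hsd3b2 and 7.79% in Hsd3b5 occurred unchanged in another gene of the family. Apart from any shared reads left uncounted, the sum of the 9 genes named Hsd3b and a number does not depend on that division. It was 619 ± 105 CPM (SD, n = 4) in control mice and 18.5 ± 3.2 CPM (SD, n = 3) in LPS mice, 33.4-fold lower, with control mice between 520 and 762 CPM and LPS mice between 14.9 and 20.6 CPM. Hsd3b1, Hsd3b4, Hsd3b6 and Hsd3b8 had 0 counts in all libraries, and Hsd3b9 had 1 count in 1 control library. Hsd3b7, which acts on bile acid precursors, was at 8.11 ± 2.12 CPM in control and 3.15 ± 0.85 CPM in LPS mice, with a log2 fold change of -1.36 (SE 0.30) and an adjusted p-value of 0.00500 by edgeR's quasi-likelihood test (Benjamini-Hochberg).

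The makeup of the trio differed between the groups too, a measure that library scaling does not touch. Hsd3b5 took between 47.7% and 51.8% of the counts of Hsd3b2, Hsd3b3 and Hsd3b5 in control mice, and 12.9%, 3.03% and 9.80% in LPS replicates 1 to 3. Hsd3b3 took between 35.2% and 37.7% in controls and between 73.4% and 88.6% in LPS mice. Hsd3b2 took between 11.8% and 15.3% in control mice, and 13.7%, 8.33% and 6.37% in LPS mice, which overlapped. Hsd3b3 thus held most of what was left, at 12.6 ± 2.3 CPM (SD, n = 3).

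Hsd11b1 (ENSMUSG00000016194) encodes the enzyme that regenerates corticosterone, the active glucocorticoid of mice, from its inert keto form. It had 8579, 8641, 10947 and 11174 counts in control replicates 1 to 4 and 2594, 2154 and 2279 counts in LPS replicates 1 to 3. Scaled, these were 590.5 ± 60.4 CPM (SD, n = 4) and 133 ± 12 CPM (SD, n = 3), 4.43-fold lower in LPS mice, with a log2 fold change of -2.15 (SE 0.16) and no overlap. H6pd, which supplies the cofactor for that reaction, was at 297 ± 57 CPM in control and 426 ± 48 CPM in LPS mice, with a log2 fold change of 0.52 (SE 0.17) and an adjusted p-value of 0.0386 by edgeR's quasi-likelihood test (Benjamini-Hochberg), under the fold threshold and with overlapping groups. Counts of Hsd11b1 per count of H6pd were 2.51, 1.95, 1.78 and 1.87 in control mice and 0.322, 0.306 and 0.312 in LPS mice. This ratio within a mouse, 2.03 ± 0.33 against 0.313 ± 0.008, was 6.47-fold lower in LPS mice and was not corrected for transcript length. Hsd11b2, which runs the opposite reaction, had 1 count in 1 LPS library and 0 in the others.

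Srd5a1 (ENSMUSG00000021594), which encodes the liver form of steroid 5α-reductase, had 1098, 1066, 1703 and 1800 counts in control mice and 192, 159 and 185 counts in LPS mice. The level was 84.0 ± 15.6 CPM (SD, n = 4) and 10.2 ± 1.3 CPM (SD, n = 3), 8.25-fold lower, with a log2 fold change of -3.04 (SE 0.19) and no overlap. Hsd17b6 (ENSMUSG00000025396), which oxidises androstanediol and retinol, varied widely among control mice, with 816, 1272, 2525 and 2018 counts. Control replicate 1 was lowest at 57.7 CPM and control replicate 3 highest at 154 CPM, while the LPS mice had 259, 185 and 123 counts, all lower. Its log2 fold change was -3.21 (SE 0.32), -3.40 without control replicate 1 and -2.90 without control replicate 3.

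Hsd17b2 (ENSMUSG00000031844), which inactivates oestradiol and testosterone by oxidation, had 3866, 3716, 3928 and 4622 counts in control mice and 1258, 1093 and 1139 counts in LPS mice. Its level was 243 ± 22 CPM (SD, n = 4) and 66.4 ± 7.3 CPM (SD, n = 3), 3.66-fold lower, with a log2 fold change of -1.87 (SE 0.15). Hsd17b13 (ENSMUSG00000034528), a protein of hepatocyte lipid droplets named after its sequence family, had 2413, 3443, 4783 and 6325 counts in control mice and 4460, 4249 and 4168 counts in LPS mice. The LPS mice lay inside the range of the control mice. Its level was 247 ± 64 CPM (SD, n = 4) and 246 ± 36 CPM (SD, n = 3), with a log2 fold change of -0.00 (SE 0.20), so no change was measured. Over the 16 alternatives its log2 fold change lay between -0.16 and 0.14, on either side of 0.

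To compare levels between genes, CPM were divided by the median length in kb of the coding transcripts of each gene in GENCODE M21. In control mice Hsd11b1 led at 436 ± 45 CPM per kb (SD, n = 4). Hsd3b5 at 197 ± 37, Hsd17b13 at 188 ± 49, Hsd17b2 at 184 ± 16 and Hsd3b3 at 153 ± 30 CPM per kb followed, and neighbours in this order did not differ beyond their spread. Below them came Hsd17b6 at 66.8 ± 28.3, Hsd3b2 at 45.6 ± 5.1 and Srd5a1 at 31.8 ± 5.9 CPM per kb, of which the first 2 lay within their spread. Cyp17a1 at 0.569 ± 0.116 and Sult1e1 at 0.361 ± 0.225 CPM per kb closed the order, within their spread of each other.

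In LPS mice the order of these length-corrected levels was another. Hsd17b13 led at 188 ± 27 CPM per kb (SD, n = 3), followed by Sult1e1 at 122 ± 17, Cyp17a1 at 109 ± 17 and Hsd11b1 at 98.4 ± 8.9 CPM per kb, the last 3 within the spread of their neighbours. Hsd17b2 came next at 50.3 ± 5.6 CPM per kb, then Hsd3b3 at 8.58 ± 1.54 and Hsd17b6 at 7.20 ± 1.69, which lay within their spread, and Srd5a1 at 3.86 ± 0.50 CPM per kb. Hsd3b2 and Hsd3b5 closed the order at 0.836 ± 0.407 and 0.835 ± 0.519 CPM per kb. Cyp17a1 and Sult1e1 together took 0.0716% to 0.107% of the counts of the 10 genes in control mice and 42.9%, 44.4% and 44.9% in LPS replicates 1 to 3, as shares of counts without length correction. The total of the 10 genes was 0.160% to 0.231% of all counts in control mice and 0.0778% to 0.0852% in LPS mice.

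Other enzymes of steroid metabolism were taken from a list that leaves out the 10 genes. Of the 64 genes of that list in the count table, 41 were tested, and 3 were higher, 25 lower and 13 not called. Among those lower, Cyp2a4 and Srd5a2 passed the filter on low counts through the control libraries alone, so their direction was built in. The median log2 fold change of the 41 was -1.38, against -0.01 over all 13683 tested genes. Without control replicate 1 the list had 3 genes higher and 23 lower, as it had without LPS replicate 1, and with LPS replicates 2 and 3 summed it had 3 higher and 22 lower. Reads of the Cyp2a, Cyp3a, Akr1c, Sult2a and Ugt2b families can be shared between close copies, so the values of single genes in them are uncertain.

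Other genes of steroid synthesis had few or no counts in these livers. Cyp11a1, which opens the pathway from cholesterol, Cyp11b1 and Cyp19a1, the aromatase, had 0 counts in every library, which allows at most the detection floor given above. Cyp21a1 had 0, 0, 2 and 1 counts in control mice and 12, 6 and 5 in LPS mice, too few to be tested. Star, the cholesterol transport protein, was at 1.68 ± 0.41 CPM (SD, n = 4) in control and 1.22 ± 0.47 CPM (SD, n = 3) in LPS mice, with a log2 fold change of -0.46 (SE 0.47) and overlapping groups. Cyp17a1 was thus high in LPS mice beside genes of steroid synthesis with few or no counts.

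The electron donors of CYP17A1 moved apart. Por, the reductase that serves microsomal P450 enzymes, had 528, 869, 1365 and 1561 counts in control mice and 4331, 4273 and 4443 counts in LPS mice. It rose to 250.5 ± 44.1 CPM (SD, n = 3) from 62.8 ± 20.8 CPM (SD, n = 4), with a log2 fold change of 1.99 (SE 0.24) and an adjusted p-value of 6.01e-05 by edgeR's quasi-likelihood test (Benjamini-Hochberg). Cyb5a, the cytochrome that aids its side chain cleavage, fell to 266 ± 14 CPM from 804 ± 142 CPM, with a log2 fold change of -1.59 (SE 0.17) and an adjusted p-value of 2.42e-05 by edgeR's quasi-likelihood test (Benjamini-Hochberg). Of the 5 donors and cofactor suppliers tested, 1 was higher, 2 were lower and 2 were not called.

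Among 17β-hydroxysteroid dehydrogenases outside the set, 6 were tested, with 1 higher, 2 lower and 3 not called. Hsd17b7, which also works in cholesterol synthesis, rose to 67.7 ± 18.8 CPM (SD, n = 3) from 28.9 ± 4.7 CPM (SD, n = 4), with a log2 fold change of 1.23 (SE 0.20). Akr1c6 and Hsd17b11, named after their values were seen, were lower. Akr1c6 fell to 157 ± 12 CPM from 1444 ± 242 CPM, with a log2 fold change of -3.20 (SE 0.19), and Hsd17b11 fell with one of -1.12 (SE 0.18). Of 8 reductases tested, 5 were lower and 0 higher at the call threshold in edgeR and 3 were not called. Akr1d1, the 5β-reductase, fell to 62.9 ± 2.2 CPM from 167 ± 5 CPM, with a log2 fold change of -1.41 (SE 0.13) and an adjusted p-value of 5.76e-06 by edgeR's quasi-likelihood test (Benjamini-Hochberg). Srd5a2, the second 5α-reductase, had 35, 24, 17 and 35 counts in control mice and 5, 3 and 13 counts in LPS mice, and its call (adjusted p = 0.0335 from the same edgeR test) was lost in 8 of 15 alternative fits at the same threshold, with adjusted p up to 0.136 without LPS replicate 2. Srd5a2 also passed the filter on low counts through the control libraries alone, so its direction was built into being tested.

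Hydroxylases and conjugating enzymes had the widest falls of the list. Of 6 hydroxylases tested, 4 were lower and 2 not called. Among those lower, Cyp2a4 had 41, 10, 39 and 12 counts in control mice and 9, 1 and 0 counts in LPS mice. It passed the filter on low counts through the control libraries alone, so its direction was built into being tested. Cyp3a11, the main steroid 6β-hydroxylase of mouse liver, fell to 129 ± 43 CPM (SD, n = 3) from 3379 ± 558 CPM (SD, n = 4), with a log2 fold change of -4.71 (SE 0.27). Cyp2a5 had 1856, 2952, 1459 and 2344 counts in control mice and 259, 22 and 39 counts in LPS mice, with a log2 fold change of -4.58 (SE 0.58). LPS replicate 1 was the highest of its group, and without it the value was -6.07. Of 14 conjugating enzymes and their helpers tested, 11 were lower, 1 higher and 2 not called. Ugt2b1, a glucuronosyltransferase, fell to 33.0 ± 6.0 CPM from 979 ± 253 CPM, with a log2 fold change of -4.89 (SE 0.25). Sult2a8, a hydroxysteroid sulphotransferase, fell to 66.7 ± 9.9 CPM from 1448 ± 125 CPM, with a log2 fold change of -4.44 (SE 0.19). Both sulphotransferases that were higher in LPS mice, Sult1e1 and Sult2a7, were scarce in control mice. Sult2a7 went to 3.76 ± 1.02 CPM from 1.45 ± 0.15 CPM, with a log2 fold change of 1.36 (SE 0.35), and its call was lost without LPS replicate 2 (adjusted p = 0.0866 by edgeR's quasi-likelihood test, Benjamini-Hochberg). Papss2, which makes the sulphate donor that SULT1E1 uses, fell to 57.0 ± 7.1 CPM from 126 ± 22 CPM, with a log2 fold change of -1.14 (SE 0.17).

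**Figure D2:**
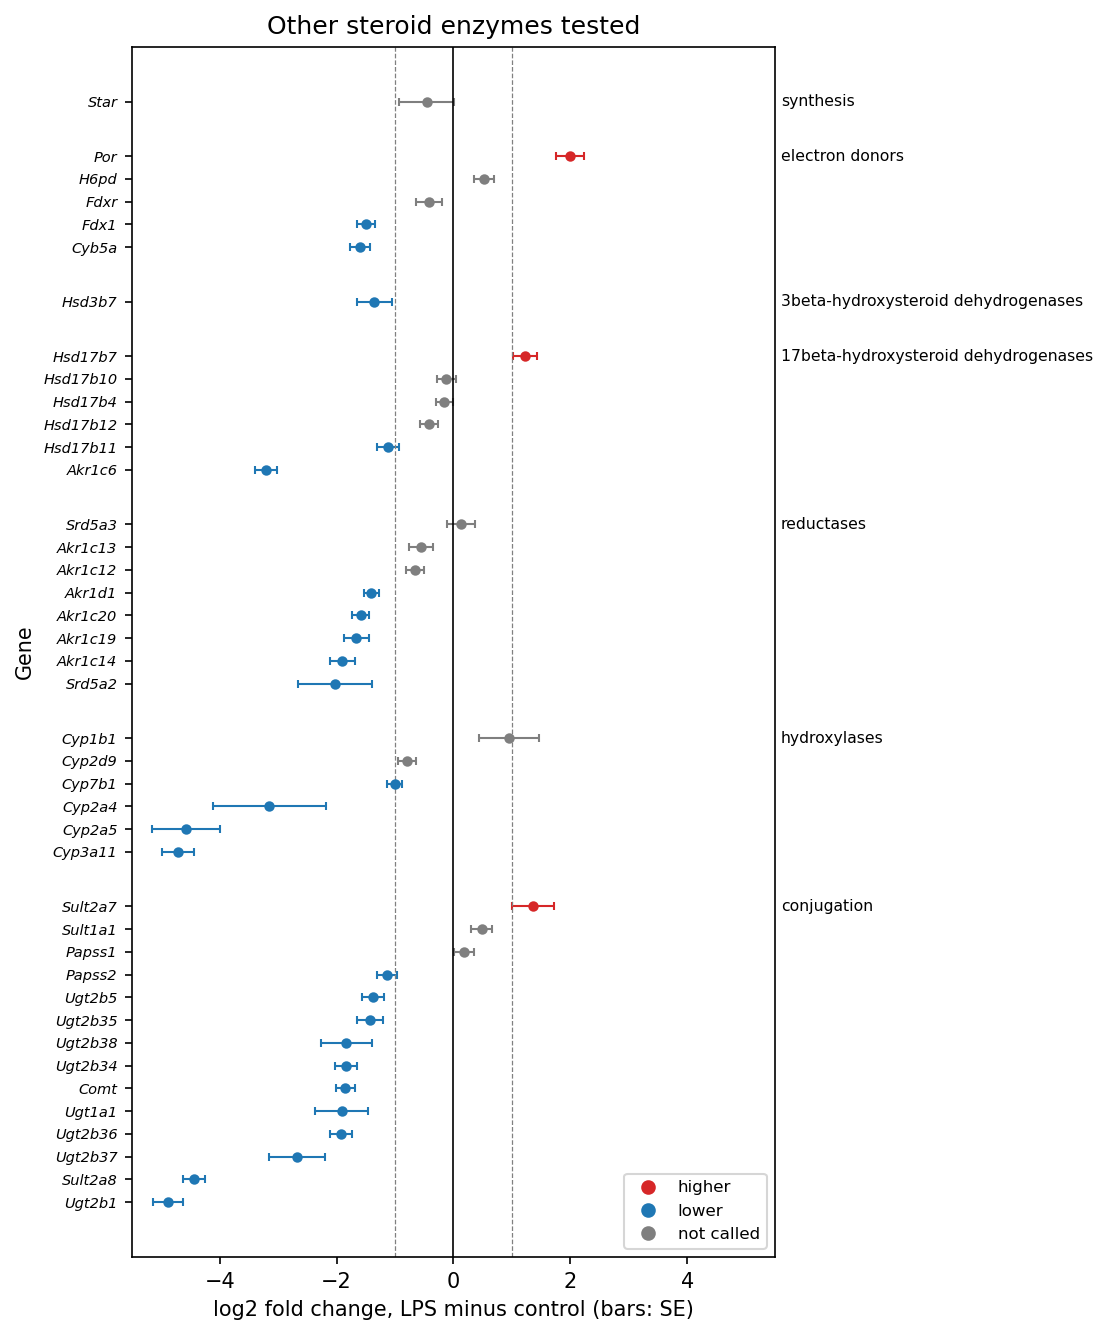
Log2 fold change of LPS over control mice for the 41 tested enzymes of steroid metabolism outside the set, grouped by role, with bars for the SE, dashed lines at -1 and 1 and colours for the call. Genes called lower (25) outnumber those called higher (3), and the lowest are Ugt2b1, Cyp3a11, Cyp2a5 and Sult2a8.

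Receptors and carriers of steroids were also examined. Of 11 genes listed, 7 were tested, with 2 higher, 4 lower and 1 not called. Serpina6, which encodes the corticosteroid-binding globulin of plasma, had 1292, 2258, 2242 and 2612 counts in control mice and 102, 57 and 40 counts in LPS mice. Its level fell to 3.62 ± 1.11 CPM (SD, n = 3) from 124 ± 23 CPM (SD, n = 4), with a log2 fold change of -5.09 (SE 0.26) and an adjusted p-value of 3.47e-08 by edgeR's quasi-likelihood test (Benjamini-Hochberg). Nr3c1, the glucocorticoid receptor, was at 65.5 ± 11.3 CPM in control and 50.6 ± 1.4 CPM in LPS mice, with a log2 fold change of -0.37 (SE 0.16) and an adjusted p-value of 0.0995 by edgeR's quasi-likelihood test (Benjamini-Hochberg), and was not called. Nr3c2, the mineralocorticoid receptor, fell to 3.87 ± 0.32 CPM from 9.08 ± 2.36 CPM.

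Esr1 and Slc10a6 were the genes of this list called higher. Esr1, the main oestrogen receptor of liver, had 230, 191, 226 and 358 counts in control mice and 556, 604 and 606 counts in LPS mice, and rose to 34.1 ± 7.4 CPM (SD, n = 3) from 14.9 ± 2.4 CPM (SD, n = 4), with a log2 fold change of 1.19 (SE 0.19). Slc10a6, a carrier of sulphated steroids, had 0, 0, 19 and 2 counts in control mice and 116, 143 and 132 counts in LPS mice, so it passed the filter through the LPS libraries and its direction was built in. Pgrmc1 fell to 759.7 ± 76.0 CPM from 1528 ± 68 CPM, with a log2 fold change of -1.01 (SE 0.15), which lay at the fold threshold and was -0.92 without LPS replicate 1. Esr2, Pgr, Gper1 and Shbg had 0 counts in all libraries.

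Known target genes of the glucocorticoid receptor were mostly higher. Of 13 tested, 8 were higher, 2 lower and 3 not called, with a median log2 fold change of 1.30, and without control replicate 1 the number higher was 6. Mt2, a metallothionein that metals and inflammation also induce, rose to 852 ± 177 CPM (SD, n = 3) from 1.67 ± 0.51 CPM (SD, n = 4). Fkbp5 rose to 181 ± 3 CPM from 12.1 ± 5.9 CPM, with a log2 fold change of 3.90 (SE 0.30) and an adjusted p-value of 1.07e-06 by edgeR's quasi-likelihood test (Benjamini-Hochberg). Per1 and Zbtb16 rose by log2 fold changes of 2.13 (SE 0.30) and 1.86 (SE 0.23). Dusp1 and G6pc fell, with log2 fold changes of -1.60 (SE 0.23) and -2.44 (SE 0.31). Corticosterone itself was not measured.

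Since Hsd3b5 is a male-biased gene, other genes with a sex difference in mouse liver were listed. Of 15 male-biased genes, all tested, 9 were lower, 2 higher and 4 not called, with a median log2 fold change of -1.08, and without LPS replicate 1 the number lower was 6. Cyp2d9, Cyp7b1 and Ugt2b38 of this list are also in the list of enzymes. Slco1a1, an uptake carrier, fell to 30.0 ± 5.6 CPM (SD, n = 3) from 589 ± 73 CPM (SD, n = 4), with a log2 fold change of -4.29 (SE 0.20). Selenbp2, Cyp2u1 and Elovl3 fell with log2 fold changes of -3.18 (SE 0.22), -2.11 (SE 0.23) and -2.07 (SE 0.15). C4a rose, with a log2 fold change of 1.39 (SE 0.31), and Moxd1 was called higher with 0, 1, 0 and 0 counts in control mice and 16, 122 and 77 counts in LPS mice. Moxd1 passed the filter on low counts through the LPS libraries alone, so its direction was built into being tested. Of 16 female-biased genes, 3 were tested, and 6 had 0 counts in every library. Among the 3, Prlr fell to 14.1 ± 3.1 CPM from 85.4 ± 5.3 CPM, with a log2 fold change of -2.60 (SE 0.17).

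Growth hormone sets much of that sex difference, so genes of its signalling and other hepatic regulators were listed. Of 10 genes of that list tested, 7 were lower and 3 not called, and 0 were called higher by edgeR or by DESeq2, although Hnf4a was higher without a fold threshold. Ghr, the growth hormone receptor, fell to 235 ± 11 CPM (SD, n = 3) from 678 ± 66 CPM (SD, n = 4), with a log2 fold change of -1.53 (SE 0.15) and an adjusted p-value of 9.12e-06 by edgeR's quasi-likelihood test (Benjamini-Hochberg). Stat5b, its signal transducer, fell to 26.5 ± 0.6 CPM from 55.6 ± 3.0 CPM, with a log2 fold change of -1.07 (SE 0.13). Socs2 had 313, 288, 1494 and 395 counts in control mice and 31, 52 and 31 counts in LPS mice. Igfals and Bcl6 fell with log2 fold changes of -2.70 (SE 0.20) and -2.00 (SE 0.35). Onecut1 was called lower (adjusted p = 0.0226 from edgeR's test), but the call was lost without any 1 of the LPS mice (adjusted p from 0.0604 to 0.0819). Hnf4a was at 309 ± 61 CPM in control and 517 ± 83 CPM in LPS mice, with a log2 fold change of 0.74 (SE 0.18) and an adjusted p-value of 0.00960 by edgeR's quasi-likelihood test (Benjamini-Hochberg).

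Whole liver holds many cell types, and fewer cells of a type cannot be told apart from less RNA per cell. Of 13 markers of adrenal cortex and Leydig cells, 8 had 0 counts in every library, among them Cyp11a1, Cyp11b1, Mc2r, Nr5a1 and Insl3, which define these cells. The list summed to 43.2, 42.5, 28.2 and 30.6 CPM in control replicates 1 to 4 and 53.1, 76.3 and 73.6 CPM in LPS replicates 1 to 3, nearly all of it from Mrap, at 34.3 and 65.9 CPM on average. Kidney tubule markers summed to 113.5, 8.02, 26.1 and 5.47 CPM in control mice and 4.89, 0.387 and 0.0623 CPM in LPS mice. Their most abundant gene, Kap, had 1506 counts in control replicate 1, the highest of any library. Its part in the levels of the 10 genes in that mouse was not tested.

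Of 11 hepatocyte markers tested, 1 was lower (Ttr) and 10 were not called, with a median log2 fold change of 0.00. Their sum, led by Alb, was 71403, 70817, 96655 and 83773 CPM in control mice and 49065, 54298 and 54019 CPM in LPS mice. Of 8 pericentral hepatocyte markers 4 were lower and 4 not called, and they summed to between 8951 and 12305 CPM in controls and between 6208 and 6547 CPM in LPS mice, with Cyp2e1 most abundant. Of 6 periportal markers 3 were higher, 1 lower and 2 not called, and they summed to between 1902 and 3573 CPM in controls and between 3430 and 4672 CPM in LPS mice, with Pck1 most abundant. The part of these differences in the results for the 10 genes was not tested.

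Immune cell markers moved with LPS. Of 10 neutrophil markers 8 were tested and called higher, but 6 of the 8 (S100a8, Cxcr2, Mmp8, Retnlg, Ngp and Ltf) passed the filter on low counts through the LPS libraries alone, so their direction was built in, as it was for Ly6c2 among the macrophage markers and, through the control libraries, for Clec4g and Kap. The 10 summed to 5.24, 4.04, 1.65 and 2.95 CPM in control mice and 216.6, 159.7 and 159.7 CPM in LPS mice, with S100a9 most abundant in LPS mice. Of 11 macrophage and Kupffer cell markers 4 were higher, 1 lower and 6 not called. They summed to between 123 and 199.7 CPM in control mice and to 696, 152 and 156 CPM in LPS mice, with Marco most abundant in LPS mice, and LPS replicate 1 stood apart. By CPM that mouse also had the highest Hsd3b2, Hsd3b5 and Hsd17b6 of its group. It had the lowest Cyp17a1, Sult1e1, Hsd11b1, Hsd17b2, Hsd17b13 and Srd5a1, and lay between the others for Hsd3b3. Its library was the largest of the group, and before scaling it had the most counts of each of the 10 genes. Sinusoidal endothelium markers summed to between 83.7 and 129 CPM in controls and between 69.8 and 123 CPM in LPS mice (2 of 6 higher, 1 lower), with Clec4g and Stab2 most abundant in control mice and Pecam1 in LPS mice. Stellate cell markers summed to between 151 and 337 CPM and between 172 and 216 CPM (2 of 7 lower), with Dcn, which was not called, most abundant, and cholangiocyte markers to between 72.2 and 262 CPM and between 137 and 165 CPM (1 of 5 higher), with Spp1, which was not called, most abundant. How far these cells contribute to the levels of the 10 genes was not tested.

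For 4 of the genes, those with the nearest profile were found by the Euclidean distance between mean-centred log2 CPM over the 7 libraries, among the 12376 tested genes that reached 1 CPM on average. The group difference dominates such a distance. Nearest to Cyp17a1 were Mt1, a metallothionein, at a distance of 0.720, Ngp, a neutrophil granule protein, at 0.762, and Serpina3i, a protease inhibitor, at 1.19. Against a floor of 3 counts in each control library, where it had 0, Ngp was higher in LPS mice by at least 84.8-fold. Nearest to Sult1e1 were Saa1, an acute phase protein, at 1.27, E030018B13Rik at 1.49 and Orm2, another acute phase protein, at 1.58. Saa1 was 87.3 ± 40.4 CPM (SD, n = 4) in control and 22105 ± 4939 CPM (SD, n = 3) in LPS mice. Nearest to Hsd3b5 were Cyp2c69 at 1.49, Inmt at 1.51 and Car3 at 1.93. Ngp, Serpina3i and E030018B13Rik, with at most 0, 3 and 4 counts in a control library, passed the filter through the LPS libraries alone. Cyp2c69, with at most 8 counts in an LPS library, passed it through the control libraries alone. The direction of these genes was thus built in. Nearest to Hsd11b1 were Pbld2 at 0.277, the urea cycle enzyme Otc at 0.299 and the carboxylesterase Ces2a at 0.333, each with a log2 fold change between -2.07 and -2.01.

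Since 7 genes of the set were lower together, the promoters were compared. RefSeq promoter windows, 250 bases before to 50 bases after the start in GRCm38.p6, were matched by symbol for 8 of the 10 genes, in 10 windows. Cyp17a1 and Hsd17b2 had no entry. Both strands were searched for TATAAA (the TATA box), CCAAT (the CCAAT box), AGGTCA (a nuclear receptor motif), TGTTCT (a steroid receptor motif), TTCNNNGAA (a STAT motif) and TTGCNNAA (a C/EBP motif), and no window shown held more than 1 match. The TATA box, STAT and C/EBP motifs were in 0 of the 10 windows, against 13.6%, 8.30% and 10.8% of all 32851 windows. CCAAT was in 6 of the 10 (all windows of Hsd11b1, Hsd3b3, Hsd17b6 and Srd5a1), against 37.4% of all windows, AGGTCA in 2 (Sult1e1 and Hsd17b13), against 16.3%, and TGTTCT in 1 (Hsd3b2), against 19.0%. These are matches of letters and say nothing of binding. The windows of Sult1e1, higher in LPS mice, and of the paralogs Hsd3b2 and Hsd3b5, lower by the widest margins, are shown with matches in capitals: the reverse complement of AGGTCA in Sult1e1 and of TGTTCT in Hsd3b2. They lie on the minus strand at chr5:87591562-87591861, chr3:98724494-98724793 and chr3:98645485-98645784, and the Hsd3b2 and Hsd3b5 windows were identical at 51.0% of aligned positions.
Sult1e1: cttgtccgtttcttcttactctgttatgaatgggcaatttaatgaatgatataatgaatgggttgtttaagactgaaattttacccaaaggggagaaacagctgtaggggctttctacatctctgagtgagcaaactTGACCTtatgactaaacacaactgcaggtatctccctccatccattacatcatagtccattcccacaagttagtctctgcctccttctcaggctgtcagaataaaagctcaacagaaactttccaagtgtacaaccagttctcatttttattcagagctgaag
Hsd3b2: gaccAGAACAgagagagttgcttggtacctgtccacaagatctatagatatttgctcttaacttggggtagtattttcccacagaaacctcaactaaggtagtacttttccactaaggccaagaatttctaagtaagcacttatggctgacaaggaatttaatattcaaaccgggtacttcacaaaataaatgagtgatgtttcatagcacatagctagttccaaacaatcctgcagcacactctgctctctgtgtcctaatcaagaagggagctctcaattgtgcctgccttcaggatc
Hsd3b5: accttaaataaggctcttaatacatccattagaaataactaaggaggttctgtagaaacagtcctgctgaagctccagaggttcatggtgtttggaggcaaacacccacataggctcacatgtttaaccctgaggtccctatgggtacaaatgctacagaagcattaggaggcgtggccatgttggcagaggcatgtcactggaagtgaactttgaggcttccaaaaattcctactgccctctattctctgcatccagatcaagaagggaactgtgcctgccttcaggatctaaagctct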

How the data were processed

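Per the labels, polyadenylated liver RNA was made into libraries that keep the strand (dUTP). The submitters' processing notes name cutadapt 1.9.1, HISAT2 2.2.1, HTSeq 0.6.1 and GRCm39. The sources used here do not give the annotation release, the strand setting or how reads matching more than 1 gene were handled, so reads of paralogs, overlapping and antisense genes may be divided wrongly. The authors deposited raw counts per gene for 7 libraries. FPKM values named in the methods were not used here.

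Counts were filtered with filterByExpr, scaled by TMM and compared with edgeR 4.0.16 (R 4.3.3) by the quasi-likelihood test on a model of group alone, adjusted after Benjamini-Hochberg across 13683 genes. SE values come from the F statistic. For the profile distance, 2 prior counts were used. The procedure was tested on simulated data.

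The 10 genes and the gene lists were chosen with earlier results of these data known. Named are the 10 genes, in each list every gene called when 6 or fewer are called in a direction and otherwise the 4 with the largest log2 fold change in size at a mean of at least 1 CPM, a set of partner genes whatever their values, the Hsd3b family, the most abundant or defining markers of a cell type, the 3 nearest profiles, and Hp and Lcn2. Akr1c6, Hsd17b11, Cyp2a4 and some genes of low counts or high abundance among the markers were named in addition, after their values were seen. Results of 2 genes under this rule are not reported here. Symbols of the lists that matched no gene of the table (Sts, Hsd17b8, Tf, G6pc1) were not analysed here.

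The alternatives comprised mitochondrial genes left out, total counts, RLE factors, DESeq2 1.42.0, no filter, at least 10 counts in every library, replicate number as a block, LPS replicates 2 and 3 summed, each library left out, no fold threshold and an adjusted p below 0.01. Leaving out control replicate 1 together with mitochondrial genes was added after seeing the data. Lengths and coding sequences came from GENCODE M21 (GRCm38) and promoters from RefSeq.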

Additional observations from a re-analysis of the deposited data

How the results depend on the processing

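The log2 fold changes of the 10 genes kept their direction under every alternative run, Hsd17b13 at 0 apart, whose sign varied. Those of Cyp17a1 lay between 7.43 and 7.69, of Hsd3b5 between -8.42 and -7.47 and of Hsd11b1 between -2.27 and -2.07. With at least 10 counts in every library, Sult1e1 and Hsd3b5 leave the test by construction: 1 of the 10 genes had a log2 fold change above 1, 693 genes in all were called higher, as were 1 receptor or carrier, 1 male-biased and 0 female-biased genes. With no fold threshold 1825 genes were higher and 1773 lower, and 1 growth hormone or hepatic regulator (Hnf4a) was higher. Of female-biased genes, 3 were lower with DESeq2 and 2 with no filter, the cause was not tested. Total counts without scaling factors moved the median log2 fold change of all genes from -0.01 to -0.13. The summed Hsd3b family had a log2 ratio between -5.18 and -4.92, and its fit with the block was not run, since the sum has no test. With the replicate number as a block, 995 genes were higher and 926 lower, and among named genes the call of Srd5a2 was lost (adjusted p = 0.0822 from edgeR). The numbers do not pair the mice: deviations from the group means correlated across genes at 0.18, -0.06 and 0.07 between mice of the same number. Of single named genes, 16 values lost their call in alternative fits at an adjusted p below 0.05, in Srd5a2, Onecut1, Pgrmc1 and Sult2a7, and Srd5a2, Onecut1 and Sult2a7 also at 0.01. Genes with few counts in 1 group, such as Sult1e1 in control mice, are limited by depth.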
